A study of Homo sapiens with 12 samples.

Results

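The antisense transcripts of K562 cells described here were the genes whose symbol is that of another gene followed by -AS and, usually, a number, and whose mean level over 12 libraries was at least 3 CPM (counts scaled by the total of their library to 1000000). The counts table held 1237 such symbols among 28278 genes, with 299 at 0 throughout, and 159 reached the level set. The members were thus chosen by their measured mean level over all 12 libraries, and DLGAP1-AS2 was also singled out because it fell under butyrate. Members just above the limit were ARHGAP5-AS1 at 3.01 CPM and TDRKH-AS1 at 3.02 CPM, and the genes just below it were COA6-AS1 at 2.91 CPM, TMCO1-AS1 at 2.86 CPM and RAB11B-AS1 at 2.84 CPM. Of the 159 members, 139 had at least 10 counts in every library, 20 did not, and 11 of those 20 had 0 counts in some library. The sense gene, which the symbol names before -AS, was in the table for 155 members and absent under that name for 4 (H1FX-AS1, HOXB-AS1, RPARP-AS1 and TRG-AS1).

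An antisense transcript is read from the DNA strand opposite to another gene. Some start beside the sense promoter and run the other way, so that both arise from one region of open chromatin, while others start inside or beyond the sense gene and run back across it. Most carry no long reading frame, and individual ones have been described as raising, lowering or not affecting their sense gene. Sodium butyrate is a short-chain fatty acid that inhibits histone deacetylases and drives K562 cells, a human erythroleukaemia line, to make haemoglobin. HRG1, also called SLC48A1, is a transporter that carries heme out of the lysosome.

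Total RNA was sequenced from 4 groups of 3 libraries. The WT untreated and KO untreated groups were K562 cells with HRG1 intact or knocked out and no treatment. The WT butyrate and KO butyrate groups were the same cells given 0.75 mM sodium butyrate 24 h after plating and again 48 h later, collected 6 h after the second dose. The design text names day 8 of differentiation for the series. The sources used here do not say how the knockout was made, how many clones it rests on or if replicates came from different cultures, so p-values measure the spread between these libraries, which may be technical, and a difference between WT and KO cannot be told apart from a difference between clones.

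Library totals ran from 19963594 to 30348538 counts. SLC48A1 was at 58.9 to 83.8 CPM in the WT libraries and at 2.94 to 10.1 CPM in the KO libraries, so each library fitted its genotype label. The replicates numbered 1 stood apart among the treated libraries: on the second principal component WT butyrate 1 lay at 40.9 and KO butyrate 1 at 4.21, against -74.3 to -84.8 for the other 4 treated libraries. The libraries numbered 1 also had the highest share of counts from the ribosomal RNA gene RNA28SN5 in each group, at 2.30% to 5.63% against 0.673% to 2.86% in the others. All 13 erythroid markers were above 3 counts in every library. Their summed level was 8731 to 19706 CPM in WT untreated and 29208 to 78900 in WT butyrate, and 4051 to 7186 in KO untreated and 5566 to 8033 in KO butyrate, so the genotypes did not overlap. The summed level of 6 megakaryocyte markers was 33.1 to 60.3 CPM in WT untreated and 117 to 227 in WT butyrate, and 15.1 to 55.3 in KO untreated and 80.6 to 118 in KO butyrate. Only 3 of the 6 were above 3 counts in every library. ITGA2B had 85 to 4015 counts, GP1BA 39 to 1087 and ITGB3 10 to 523, while GP9 had at most 54, PPBP at most 5 and PF4 0. The summed level of a 4-gene fibroblast list ran from 1.90 to 4.94 CPM in WT untreated and from 43.9 to 109 CPM in WT butyrate, and from 2.19 to 5.02 CPM in KO untreated and from 67.9 to 154 CPM in KO butyrate. COL1A1 carried that sum, at 30 to 4655 counts per library, while COL1A2 had at most 19 counts, DCN at most 18 and LUM 0. The part of these shifts in the butyrate and genotype results was not tested.

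Positions on GRCh38 were found in GENCODE 29 for 154 members, and 150 pairs could be placed. In 91 pairs the genes overlapped with starts over 1000 bases apart, and in 56 pairs the starts lay within 1000 bases of each other (median 284 bases). In the other 3 pairs the genes did not overlap and the starts were over 1000 bases apart. Some of the 56 pairs with close starts did not overlap either, among them those of BOLA3-AS1 and OTUD6B-AS1. The annotated exons overlapped in 103 pairs and not in 47. Whether the counting used strand is not given in the sources used here, so within overlapping exons reads of an antisense transcript and of its sense gene cannot be told apart.

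The start regions of 6 members that the butyrate results turn on are shown as RefSeq gives them on GRCh38.p14, from 250 bases before to 50 bases after the start, 5′ to 3′ on the gene's own strand. Capitals mark the GC box GGGCGG, bound by SP1-type factors, and the motif AGATAA, bound by GATA factors, each searched on both strands. DLGAP1-AS2 (chr18:3603487-3603786, plus strand) and DLGAP1-AS1 (chr18:3593864-3594163, plus strand) lie on the strand opposite to DLGAP1, inside its span in GENCODE 29 and without overlap with its annotated exons. CARD8-AS1 (chr19:48255425-48255724, plus strand) starts 271 bases from CARD8 by GENCODE 29, and GATA6-AS1 (chr18:22168919-22169218, minus strand) starts 621 bases from the RefSeq start of GATA6. HECW2-AS1 (chr2:196259774-196260073, plus strand) starts inside HECW2. NUTM2A-AS1 (chr10:87342509-87342808, minus strand) starts beyond NUTM2A and runs across it.
DLGAP1-AS2: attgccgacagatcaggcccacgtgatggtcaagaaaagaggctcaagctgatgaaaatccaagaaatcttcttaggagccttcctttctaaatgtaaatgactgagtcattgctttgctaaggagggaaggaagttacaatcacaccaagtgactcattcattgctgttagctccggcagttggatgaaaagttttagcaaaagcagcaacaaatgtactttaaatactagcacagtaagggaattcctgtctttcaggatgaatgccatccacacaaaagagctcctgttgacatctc
DLGAP1-AS1: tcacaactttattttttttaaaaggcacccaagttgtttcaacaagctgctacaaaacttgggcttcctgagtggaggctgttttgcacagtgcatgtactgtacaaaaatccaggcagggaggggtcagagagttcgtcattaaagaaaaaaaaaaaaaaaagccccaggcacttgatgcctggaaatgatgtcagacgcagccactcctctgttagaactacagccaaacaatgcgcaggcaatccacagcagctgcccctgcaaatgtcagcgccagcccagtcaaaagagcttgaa
CARD8-AS1: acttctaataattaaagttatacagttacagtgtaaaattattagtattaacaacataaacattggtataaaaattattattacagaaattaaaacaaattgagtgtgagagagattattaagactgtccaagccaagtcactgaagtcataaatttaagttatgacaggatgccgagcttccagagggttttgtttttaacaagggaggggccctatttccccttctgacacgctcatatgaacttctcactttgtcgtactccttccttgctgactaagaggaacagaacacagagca
NUTM2A-AS1: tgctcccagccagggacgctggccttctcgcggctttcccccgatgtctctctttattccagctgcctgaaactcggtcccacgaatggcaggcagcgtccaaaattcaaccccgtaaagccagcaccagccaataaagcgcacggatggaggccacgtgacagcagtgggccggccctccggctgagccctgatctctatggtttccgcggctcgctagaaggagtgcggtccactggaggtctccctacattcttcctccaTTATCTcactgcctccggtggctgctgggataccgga
GATA6-AS1: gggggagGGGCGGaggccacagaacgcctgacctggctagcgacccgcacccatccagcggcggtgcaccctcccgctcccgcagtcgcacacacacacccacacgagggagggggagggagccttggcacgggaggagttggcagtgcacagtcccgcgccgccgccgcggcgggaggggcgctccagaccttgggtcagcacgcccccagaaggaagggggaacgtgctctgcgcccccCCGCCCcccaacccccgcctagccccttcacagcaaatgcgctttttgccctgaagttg
HECW2-AS1: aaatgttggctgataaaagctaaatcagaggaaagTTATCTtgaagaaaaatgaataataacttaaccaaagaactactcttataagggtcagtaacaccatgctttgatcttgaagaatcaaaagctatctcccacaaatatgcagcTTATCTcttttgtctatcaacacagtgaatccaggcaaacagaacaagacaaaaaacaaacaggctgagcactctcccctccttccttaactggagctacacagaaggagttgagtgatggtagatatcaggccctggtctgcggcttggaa

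Of these 6 windows that of GATA6-AS1 held 2 GC boxes and the other 5 held none. The GATA motif was found 2 times in the window of HECW2-AS1 and 1 time in that of NUTM2A-AS1. Base composition was mixed on both sides. Of the transcripts called higher under butyrate, GATA6-AS1 had 25 CpG dinucleotides and 71.3% G and C in its window and HECW2-AS1 had 1 and 39.7%. Of those lower, NUTM2A-AS1 had 19 CpG and 60.3%, CARD8-AS1 3 CpG and 35%, and DLGAP1-AS2 3 CpG and 42.0%. DLGAP1-AS1, called in neither genotype, had 4 CpG and 46.0%. Among the 92 members with a RefSeq start window, 54.35% held a GC box and 4.348% the GATA motif. The shares were 72.5% and 3.75% for 80 sense genes and 44.95% and 10.33% for all 35116 windows in the RefSeq table.

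The median level of the members was 7.47 CPM. There were 48 members under 5 CPM and 14 at 30 CPM or above. The highest were OIP5-AS1 at 163 CPM, FGD5-AS1 at 135 CPM, TP73-AS1 at 65.0 CPM, THAP9-AS1 at 47.4 CPM and EPB41L4A-AS1 at 44.4 CPM. Per kilobase of annotated exon the order of these 5 was different, with FGD5-AS1 at 26.2 CPM per kilobase above EPB41L4A-AS1 at 13.3, OIP5-AS1 at 12.9, THAP9-AS1 at 10.8 and TP73-AS1 at 6.70. On that scale the antisense level was above the sense level in 56 of 150 pairs. It was over 10 times the sense level in 15 pairs, among them DLGAP1-AS2, DLGAP1-AS1, ATXN1-AS1, B3GALT1-AS1 and TMEM132D-AS1. The sense level was over 10 times the antisense level in 23 pairs. FGD5, an exchange factor for the GTPase CDC42, was at 0 to 13 counts in every library beside its abundant antisense transcript.

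None of the 5 most abundant members passed the edgeR test in any comparison. FGD5-AS1 was at 144 ± 3.40 CPM in WT untreated, 139 ± 36.3 in WT butyrate, 131 ± 20.6 in KO untreated and 127 ± 32.7 in KO butyrate (SD, n = 3; here and below, CPM of single groups and libraries are scaled by TMM). OIP5-AS1, known in other species as cyrano, was at 175, 286 and 224 CPM in WT untreated and 155, 126 and 159 in WT butyrate, and at 175, 189 and 159 in KO untreated and 118, 99.3 and 98.7 in KO butyrate. The treated libraries lay below the untreated ones in both genotypes, without overlap. Its log2 fold change was -0.64 ± 0.20 (SE) in WT and -0.73 ± 0.20 in KO, with edgeR adjusted p of 0.118 and 0.0692. With the replicate number as a block the KO value passed the threshold (edgeR adjusted p = 0.0341). Without the libraries numbered 1 both genotypes passed (edgeR adjusted p = 0.0269 in WT and 0.0272 in KO).

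Butyrate moved few antisense transcripts past the threshold. DLGAP1-AS2 was chosen for its fall and is left out of the counts that follow, except where it is named as included. Of the other 158 members 3 were called in WT cells at an edgeR adjusted p under 0.05, 1 higher and 2 lower (1.90%), beside 2.35% of all 15805 genes tested (1.8% higher and 0.55% lower). In KO cells 1 was called, higher (0.633%), beside 3.4% of all genes tested (2.8% higher and 0.595% lower). With DLGAP1-AS2 the counts are 4 and 2, as a description. The median log2 fold change of all 159 members, DLGAP1-AS2 included, was -0.03 in WT and -0.08 in KO, against 0.02 and 0.00 over all genes tested. In WT, 13 of the 159 (8.18%) had all treated libraries above all untreated ones and 24 (15.1%) had them below, beside 11.3% and 10.4% of all genes. In KO these counts were 8 (5.03%) and 19 (11.9%), beside 12.6% and 11.8%. DLGAP1-AS2 is included in the 24 and in the 19, so these are a description.

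**Figure D1:**
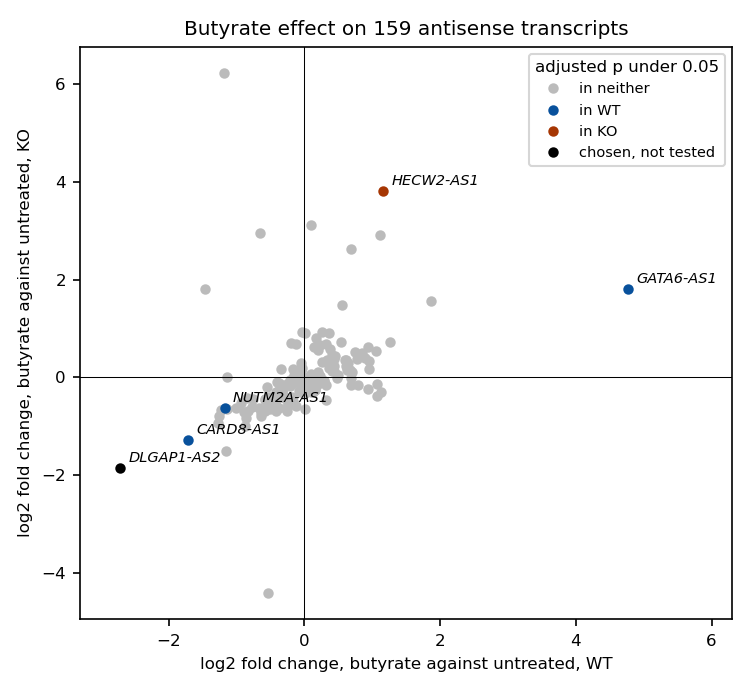
Log2 fold change of butyrate against untreated in WT (horizontal axis) and KO (vertical axis) for the 159 antisense transcripts, 1 point each. Most lie near 0 on both axes, DLGAP1-AS2 is at -2.71 and -1.86, and the grey points far from 0 on the vertical axis are transcripts with few counts in KO cells, whose fitted values depend on the prior count.

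DLGAP1, a scaffold protein gene of the postsynaptic density, gives its name to 2 of the members. DLGAP1-AS2 was at 36.1, 75.4 and 41.9 CPM in WT untreated and at 8.29, 7.13 and 7.98 CPM in WT butyrate. In KO untreated it was at 2.41, 3.76 and 1.64 CPM and in KO butyrate at 0.919, 0.529 and 0.709 CPM. No treated library reached an untreated one of the same genotype, and every KO library lay below every WT library. The log2 difference was -2.71 ± 0.37 (SE) in WT and -1.86 ± 0.39 in KO, given with no test because the transcript was chosen for it.

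DLGAP1-AS1, which lies on the same strand as DLGAP1-AS2, was at 5.90, 9.33 and 8.74 CPM in WT untreated and at 3.21, 2.77 and 3.94 CPM in WT butyrate. In KO untreated it was at 1.34, 2.57 and 1.17 CPM and in KO butyrate at 0.689, 0.429 and 1.51 CPM. The WT groups did not overlap and the KO groups did. Its log2 fold change under butyrate was -1.27 ± 0.50 (SE; edgeR adjusted p = 0.201) in WT and -0.93 ± 0.51 (edgeR adjusted p = 0.339) in KO, neither past the threshold. DLGAP1 itself had 1 to 73 counts per library and 0.207, 3.12 and 2.00 CPM in WT butyrate against 0.921, 0.696 and 1.48 CPM in WT untreated, which overlapped. With edgeR adjusted p of 0.706 in WT and 0.969 in KO, no change of DLGAP1 under butyrate was detectable at this depth. The ratio of DLGAP1-AS2 to DLGAP1 changed by -2.85 ± 0.89 (SE, log2) in WT, also given with no test.

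CARD8-AS1 and NUTM2A-AS1 were lower in WT butyrate. CARD8 is a sensor that activates caspase-1. CARD8-AS1 was at 18.9, 17.6 and 13.3 CPM in WT untreated and 6.89, 3.58 and 4.70 CPM in WT butyrate, and at 10.4, 11.6 and 14.0 CPM in KO untreated and 6.61, 3.63 and 4.54 CPM in KO butyrate. Treated and untreated libraries did not overlap in either genotype. It fell by 1.71 ± 0.34 (SE) on the log2 scale in WT (edgeR adjusted p = 0.0238), with -1.28 ± 0.33 in KO (edgeR adjusted p = 0.0558). The KO value passed with the replicate block (edgeR adjusted p = 0.0152) and without the libraries numbered 1 (edgeR adjusted p = 0.00888). CARD8, whose start is 271 bases away, was at 29.8 ± 4.80 CPM in WT untreated and 21.8 ± 1.19 CPM in WT butyrate (SD, n = 3), a log2 fold change of -0.45 ± 0.24 (edgeR adjusted p = 0.343).

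NUTM2A-AS1 was at 23.3, 21.6 and 18.3 CPM in WT untreated and 8.86, 8.58 and 10.5 CPM in WT butyrate, and at 11.7, 9.99 and 10.2 CPM in KO untreated and 8.54, 6.87 and 5.16 CPM in KO butyrate. The groups did not overlap in either genotype. It fell by 1.18 ± 0.26 (SE) on the log2 scale in WT (edgeR adjusted p = 0.0362), and in KO its value was -0.63 ± 0.26 (edgeR adjusted p = 0.192). NUTM2A belongs to a family of near-identical gene copies, so the counts of NUTM2A, NUTM2B and their antisense transcripts are uncertain. Both calls were sensitive to single libraries: when each of the 6 libraries concerned was left out in turn, CARD8-AS1 stayed past the threshold in 2 of 6 fits and NUTM2A-AS1 in 1 of 6. The highest edgeR adjusted p came without WT butyrate replicate 2, at 0.113 for CARD8-AS1 and 0.158 for NUTM2A-AS1.

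GATA6-AS1 and HECW2-AS1 were higher under butyrate, each called in 1 genotype. The mean of each over all untreated libraries is under 3 CPM, so both reach the limit only through treated libraries. A rise was thus favoured by the choice of members, and their adjusted p-values are a description. GATA6 is a zinc finger factor of endoderm and heart. GATA6-AS1 had 1, 1 and 0 counts in WT untreated and 8, 29 and 36 in WT butyrate, and was at 2.41, 2.00 and 4.65 CPM in KO untreated and 9.14, 9.68 and 13 CPM in KO butyrate. The 4 groups did not overlap, in rising order from WT untreated through WT butyrate and KO untreated to KO butyrate. In WT the summed counts were 34.3 times higher under butyrate, with a 95% exact interval of 9.17 to 289 that covers counting error only (edgeR adjusted p = 0.0126). Without WT untreated replicate 2 the edgeR adjusted p was 0.061. In KO the log2 fold change was 1.81 ± 0.53 (SE; edgeR adjusted p = 0.0855, or 0.0239 with a block for replicate number).

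GATA6 was at 0.812, 1.11 and 0.639 CPM in WT untreated and 1.92, 1.24 and 2.16 CPM in WT butyrate. In KO it was at 7.22, 5.47 and 5.65 CPM untreated and 39.9, 44.7 and 16.5 CPM under butyrate. Treated libraries lay above untreated ones in both genotypes, without overlap. GATA6 rose in KO by 2.46 ± 0.39 (SE) on the log2 scale (edgeR adjusted p = 0.00855), and in WT its value was 1.06 ± 0.41 (edgeR adjusted p = 0.201). The difference between the genotypes in the response of GATA6-AS1 did not pass the threshold (edgeR interaction, adjusted p = 0.795).

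HECW2-AS1, which starts inside the gene of the ubiquitin ligase HECW2, was at 1.07, 0.190 and 0.435 CPM in KO untreated and 5.01, 10.8 and 7.70 CPM in KO butyrate. In WT it was at 2.60, 3.02 and 3.80 CPM untreated and 3.21, 10.0 and 7.85 CPM under butyrate. The KO groups did not overlap and the WT groups did, through WT butyrate 1. It rose by 3.81 ± 0.64 (SE) on the log2 scale in KO (edgeR adjusted p = 0.00995, and 0.0626 without KO untreated replicate 2), with 1.16 ± 0.56 in WT (edgeR adjusted p = 0.305). The interaction did not pass (edgeR adjusted p = 0.744). HECW2 had 1 to 54 counts in 11 of the 12 libraries and 302 in WT untreated 2, and passed the test in neither genotype.

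**Figure D2:**
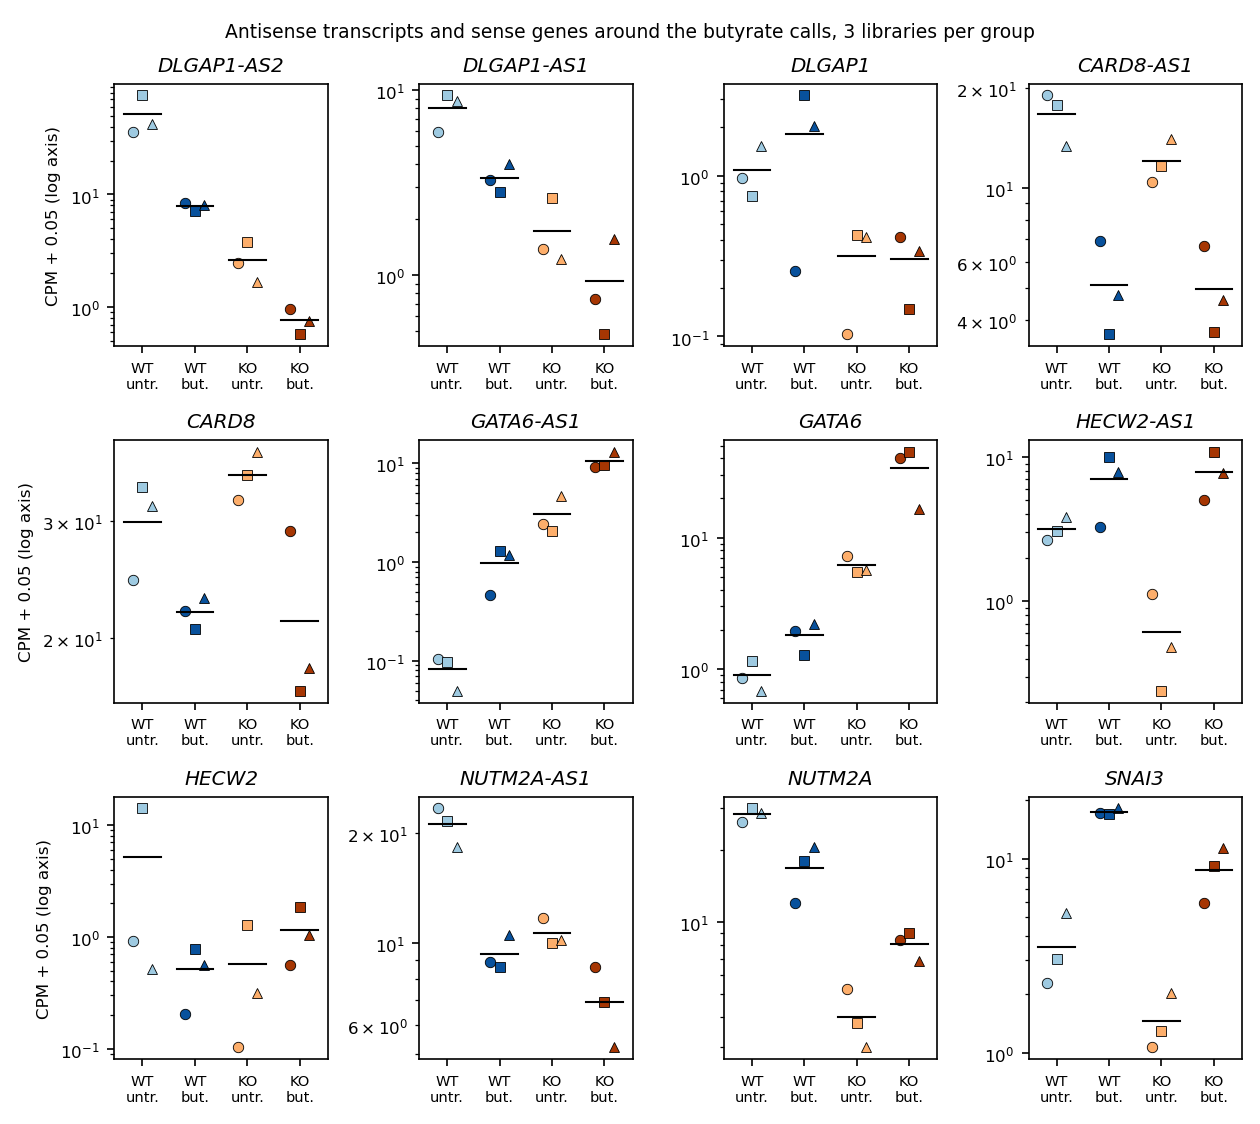
CPM plus 0.05 on a log axis for antisense transcripts and sense genes around the butyrate calls, with 1 point per library (circle, square and triangle for replicates 1, 2 and 3) and a bar at the mean of each group of 3. DLGAP1-AS2, CARD8-AS1 and NUTM2A-AS1 are lower in the treated libraries, GATA6-AS1 and GATA6 are higher, and HECW2 in WT untreated is carried by 1 library.

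The butyrate counts depended on how replicate numbers were treated. With the replicate number as a block, 9 members were called in WT and 13 in KO, and without the libraries numbered 1 there were 9 and 14. Each of these counts includes DLGAP1-AS2, which was chosen for its fall. Of all genes tested 8.61% and 11.7% were called with the block and 11.4% and 13.1% without those libraries, against 5.66% and 8.18% and then 5.66% and 8.81% of the members. With the block, SLC2A1-AS1, named for the glucose transporter GLUT1, was called in both genotypes. It was at 1.46, 1.58 and 3.29 CPM in WT untreated and 4.10, 9.73 and 9.31 CPM in WT butyrate, and at 2.62, 1.90 and 7.12 CPM in KO untreated and 4.82, 9.75 and 19.8 CPM in KO butyrate. The KO groups overlapped, and each treated library was above the untreated library of its number. ZMIZ1-AS1 was called with the block in KO, at 0.321, 1.47 and 1.34 CPM untreated and 0.781, 11.8 and 11.2 CPM treated, where KO butyrate 1 lay below the untreated libraries 2 and 3. WARS2-AS1, beside the mitochondrial tryptophanyl-tRNA synthetase gene, was called with the block in WT, at 24.2, 19.3 and 13.6 CPM untreated and 10.7, 7.25 and 5.94 CPM treated. These 3 were picked out after their values were seen.

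Without the replicate block, there were 5 called sense genes in WT and 7 in KO among 147 tested, and in no pair were both genes called. With the block both were called in 1 pair in WT (SLC2A1) and 2 in KO (GATA6 and PPP1R26), each with the same sign. SNAI3, a zinc finger repressor of the Snail family, rose in both genotypes, from 2.22, 2.97 and 5.18 CPM to 17.1, 17.0 and 18.1 CPM in WT and from 1.02, 1.24 and 1.97 CPM to 5.83, 9.09 and 11.3 CPM in KO. The groups did not overlap in either genotype. Its log2 fold changes were 2.32 ± 0.40 (SE; edgeR adjusted p = 0.014) and 2.62 ± 0.41 (edgeR adjusted p = 0.00796), while those of SNAI3-AS1 were 0.61 ± 0.33 (edgeR adjusted p = 0.366) and 0.23 ± 0.33 (edgeR adjusted p = 0.75). MAP3K14, the kinase NIK of the non-canonical NF-kB pathway, also rose in both, and SOCS2, a feedback inhibitor of cytokine signalling, fell in both.

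Knockout cells differed from WT cells in more antisense transcripts than butyrate-treated cells did from untreated cells. In untreated cells 38 of the 159 members were called, 12 higher and 26 lower in KO, beside 22.6% of all genes tested (11.7% higher and 10.9% lower). In treated cells 26 were called, 6 higher and 20 lower, beside 19.0% (10.1% higher and 8.89% lower). The members called were 23.9% of 159 untreated and 16.4% treated, near the shares of all genes. Those called lower were 16.4% and 12.6% of the members. DLGAP1-AS2 is included in these counts, and without it 37 (23.4%) and 25 (15.8%) of 158 members were called. With the replicate block the treated count was 46, which is 28.9% of the members beside 29.2% of all genes. The comparisons share no library, but both set the same KO cells against the same WT cells and come from a shared fit. Libraries with the same replicate number also deviated together, so the comparisons are not independent. There were 25 members called in both, with the same sign in 25. They were 65.8% of the 38 and 96.2% of the 26. The matching shares over all genes are not given here, so whether the members differ from other genes in this was not tested. TPT1-AS1 alone was called only in treated cells. The genotypes did not overlap in untreated cells for 38 members higher and 38 lower in KO (22.2% and 20.2% of all genes), and in treated cells for 24 and 38 (17.9% and 16.0%). The median log2 difference of the members was -0.08 untreated and -0.13 treated, against 0.02 and -0.00 over all genes. The limit on the mean level lets in transcripts that are high in one genotype only: 57 members had a mean under 3 CPM in some group, and among the other 102 there were 14 calls untreated and 9 treated. Of the calls, 8 untreated and 6 treated were of members that reach 3 CPM only through the higher group of that comparison, since their mean over the other 9 libraries is below it. For those the difference was favoured by the choice of members, and values are given with no test.

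Several members were near or at 0 in KO cells. TMEM132D-AS1, the third highest member by CPM in WT untreated, was at 85.9, 98.6 and 90.8 CPM in WT untreated and 75.3, 79.2 and 85.7 CPM in WT butyrate, and at 0.749, 1.24 and 0.267 CPM in KO untreated and 0.827, 1.09 and 1.61 CPM in KO butyrate. The genotypes were far apart with no overlap. It was lower by 6.97 ± 0.44 (SE, log2) in untreated KO cells and by 6.07 ± 0.41 in treated KO cells, given with no test. TMEM132D, a transmembrane protein gene, had 0 counts in all 12 libraries.

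B3GALT1-AS1 was at 25.9, 29.97 and 27.3 CPM in WT untreated and 10.6, 30.04 and 37.9 CPM in WT butyrate, and had 0 counts in all 6 KO libraries. Against a floor of 3 counts per library it was at least 173-fold lower in untreated and at least 190-fold lower in treated KO cells, given with no test. B3GALT1, a galactosyltransferase gene, went the same way, with 24 to 73 counts per WT library and 0 in all 6 KO libraries. ELFN1-AS1 and PPP1R26-AS1 were at 0 in the 3 KO untreated libraries, at least 65.6-fold and 74.0-fold below WT, given with no test. PPP1R26, a regulatory subunit of protein phosphatase 1, was at 70.5, 76.6 and 70.7 CPM in WT untreated and had 3, 2 and 0 counts in KO untreated. In KO butyrate it had 5, 138 and 105 counts, and it rose under butyrate in KO by a ratio of summed counts of 41.6 (95% exact interval for counting error 17.6 to 129, edgeR adjusted p = 0.0179).

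TRG-AS1, from the T cell receptor gamma locus on chromosome 7, was at 52.9, 29.9 and 34.9 CPM in WT untreated against 0.214, 0.143 and 0.234 CPM in KO untreated. The log2 difference was -7.58 ± 0.70 (SE), given with no test. The summed level of 4 T cell markers was 6.82 to 16.0 CPM in WT untreated and 1.10 to 2.57 CPM in KO untreated. Over all 12 libraries CD3D had 0 to 461 counts and CD3E 0 to 110, while CD3G and CD2 had at most 17 each. ATXN1-AS1 was at 11.9, 14.9 and 16.7 CPM in WT untreated, and had 2, 0 and 0 counts in KO untreated. The ratio of summed counts was 518 (95% exact interval for counting error 143 to 4282), given with no test. ATXN1, a chromatin-binding factor gene whose start is 353 bases away, was at 3.28 ± 0.332 CPM in WT untreated and 1.53 ± 0.476 CPM in KO untreated (SD, n = 3), with an edgeR adjusted p of 0.0682. ZFPM2-AS1, named for a cofactor of GATA factors, had 97, 254 and 152 counts in WT untreated and 1, 0 and 0 in KO untreated, a ratio of summed counts of 502 (95% exact interval for counting error 89.7 to 19866), given with no test. CCDC144NL-AS1 was lower in KO by 2.85 ± 0.42 (SE, log2; edgeR adjusted p = 0.000377) untreated and 3.63 ± 0.43 (edgeR adjusted p = 0.000107) treated, from a gene family with near-identical copies that make its counts uncertain.

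Of the DLGAP1 pair, DLGAP1-AS2 was lower in KO by 4.30 ± 0.40 (SE, log2) in untreated and 3.44 ± 0.40 in treated cells. DLGAP1-AS1 differed by -2.24 ± 0.52 in untreated cells and was lower by 1.90 ± 0.52 in treated cells. These values are given with no test, because both transcripts reach the limit on the level only through WT cells. DLGAP1-AS2 was also chosen for its fall from the untreated level. DLGAP1 had log2 differences of -1.91 ± 0.95 (edgeR adjusted p = 0.176) and -2.81 ± 0.96 (edgeR adjusted p = 0.0599), neither past the threshold. All 3 genes lie on chromosome 18, where the median log2 difference over 192 genes was -0.52 in untreated KO cells.

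Fewer members were higher in KO. TBX2-AS1 had 0 counts in all 6 WT libraries and was at 4.50, 4.57 and 11.2 CPM in KO untreated and 4.23, 5.35 and 8.22 CPM in KO butyrate. It was at least 41.5-fold higher in untreated and at least 38.2-fold higher in treated KO cells, given with no test. TBX2, a T-box repressor, had 0, 0 and 4 counts in WT untreated and 54, 57 and 88 in KO untreated, and was higher in KO (edgeR adjusted p = 0.00107). GATA6-AS1 was higher in untreated KO cells by a ratio of summed counts of 113 (95% exact interval for counting error 31.0 to 941). In treated KO cells it differed by 3.49 ± 0.58 (SE, log2), and both values are given with no test. GATA6 was higher by 2.84 ± 0.42 (SE, log2; edgeR adjusted p = 0.000428) and 4.24 ± 0.43 (edgeR adjusted p = 3.44e-05). FOXD3-AS1, beside the gene of a neural crest factor, was at 0.735 ± 0.464 CPM in WT untreated and 6.01 ± 1.76 CPM in KO untreated (SD, n = 3), given with no test.

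**Figure D3:**
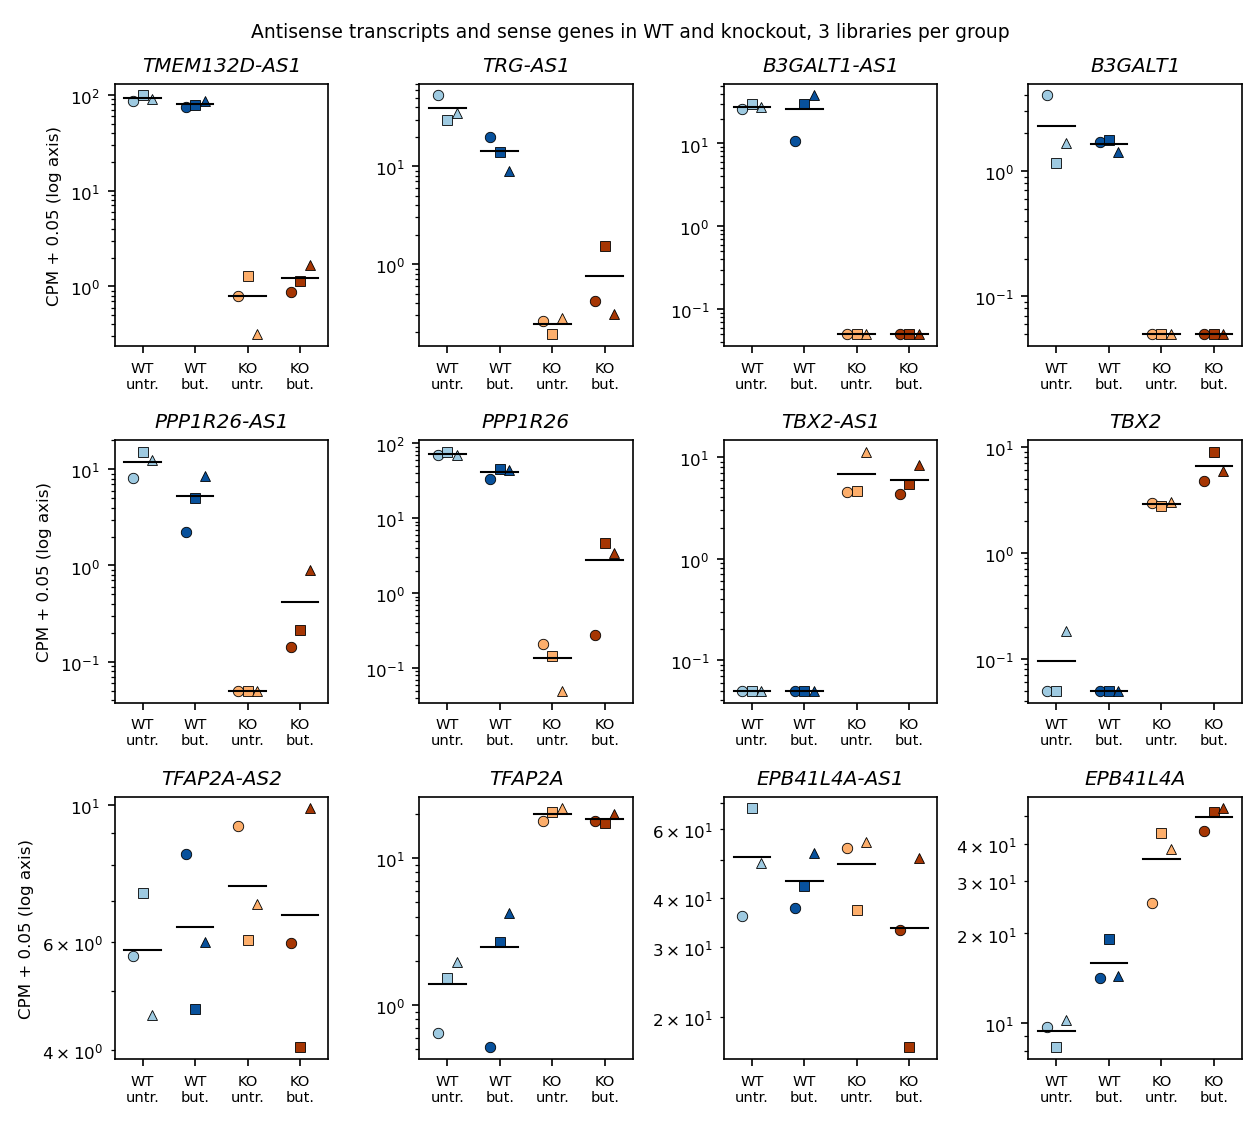
CPM plus 0.05 on a log axis for antisense transcripts and sense genes in the 4 groups, with 1 point per library (circle, square and triangle for replicates 1, 2 and 3) and a bar at the mean of each group of 3. TMEM132D-AS1, TRG-AS1 and B3GALT1-AS1 are near the bottom of the axis in KO, PPP1R26-AS1 in KO untreated and TBX2-AS1 in WT. TFAP2A-AS2 and EPB41L4A-AS1 overlap between genotypes while their sense genes do not.

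The remaining called members changed less. Among those lower in untreated KO cells, WT1-AS, which starts 112 bases from the tumour suppressor gene WT1, was at 10.8, 12.7 and 10.1 CPM in WT untreated and 2.03, 1.52 and 4.31 CPM in KO untreated, without overlap, and WT1 was lower too (edgeR adjusted p = 0.0111 and 0.00893). The smallest called differences were those of BOLA3-AS1 at -0.87 ± 0.23 (SE, log2; edgeR adjusted p = 0.0172) and EMC3-AS1 at -0.89 ± 0.27 (edgeR adjusted p = 0.0284). Calls were uneven across chromosomes. On chromosome 7, where the median log2 difference over 731 genes was -0.78 and 37.2% of genes were called lower in untreated KO cells, 5 of 10 members were called lower (ELFN1-AS1, PRKAR1B-AS1 and TRG-AS1 among them) and 1 higher (MNX1-AS1). On chromosome 14 the untreated median was 0.63 over 473 genes and 30.4% of genes were called higher. There 2 of 5 members were called higher (DHRS4-AS1 and SLC25A21-AS1). On chromosome 13 the median was 0.93 untreated and 0.81 treated, and 39.3% of genes were called higher in treated cells. Its only member, TPT1-AS1, was called in treated cells, higher by 1.38 ± 0.33 (SE, log2; edgeR adjusted p = 0.0119). What part of these members' differences goes with their chromosomes was not tested.

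Where antisense transcript and sense gene both differed between genotypes, they differed in the same direction. In untreated cells 35 antisense transcripts and 43 sense genes were called among 149 tested pairs, and both were called in 16 pairs, all 16 with the same sign. In treated cells 12 pairs had both called, all 12 with the same sign. Across the 149 pairs Pearson's r between the log2 differences was 0.745 untreated and 0.799 treated (Spearman's rho 0.695 and 0.677). These values describe pairs that share their libraries and, where exons overlap, possibly their reads. Genes of some chromosomes also shifted together between genotypes, as on chromosome 7, where the median log2 difference was -0.78 untreated. Matching values for other pairs of nearby genes are not given here. Whether the agreement is particular to antisense and sense pairs was not tested. In the 45 pairs without overlapping exons r was 0.713 and 0.785, and in the 99 with overlapping exons 0.783 and 0.825. For butyrate r was 0.259 in WT and 0.470 in KO. Over the 121 pairs in which both genes had at least 10 counts in every library, r was 0.608 and 0.664 for genotype and 0.501 and 0.273 for butyrate in WT and KO.

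**Figure D4:**
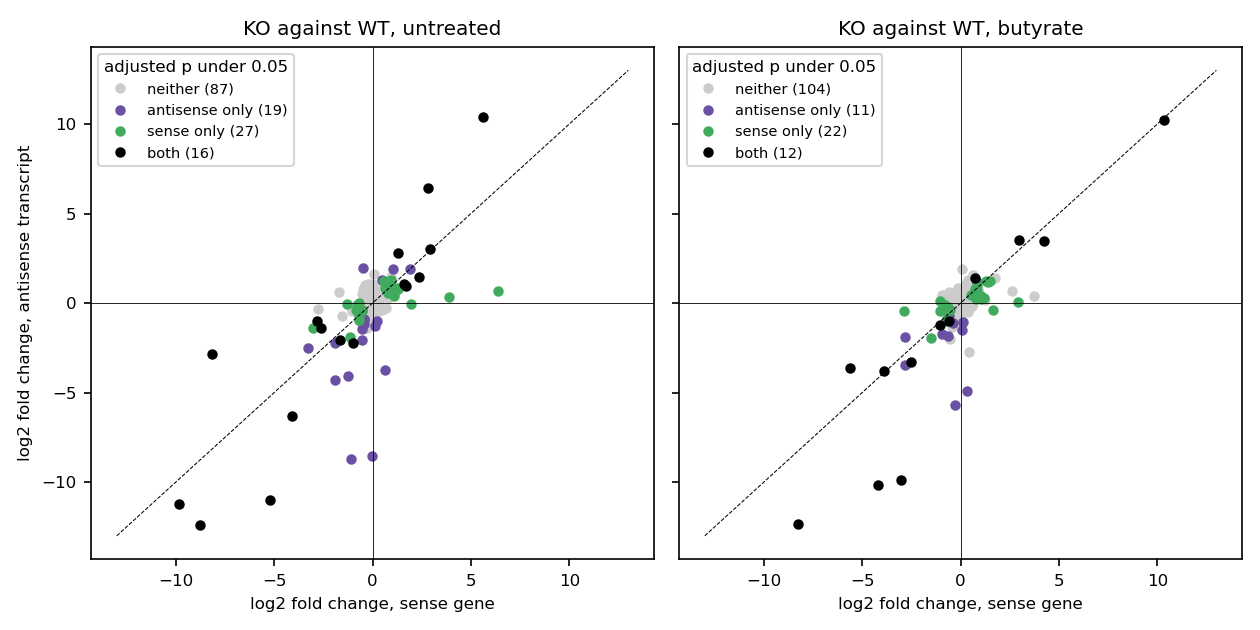
Log2 difference, KO against WT, of the sense gene (horizontal axis) and of the antisense transcript (vertical axis) in 149 pairs, untreated on the left and treated on the right, with a dashed line of equal difference. Pairs with both genes called (black, 16 and 12) lie only where both differences have the same sign. The most extreme values come from genes at or near 0 counts in 1 genotype, where the fitted value depends on the prior count.

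A change in the ratio of antisense to sense counts was called in few pairs. The log2 ratio, with a prior count of 2, was tested with limma over all 470 pairs of the table in which both genes passed the filter. Among the 149 pairs of the members, 1 was called in WT butyrate, beside 0.426% of the 470 pairs. In KO butyrate 2 were called, beside 0.426%. For genotype 12 were called in untreated cells, 4 higher and 8 lower in KO, beside 4.47%, and 6 in treated cells, all lower in KO, beside 1.7%. With the replicate block the counts were 3, 4, 22 and 11 in the same order, beside 1.06%, 1.28%, 9.36% and 4.04% of all pairs.

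The ratio of SLC25A21-AS1 to SLC25A21, the gene of a mitochondrial carrier of oxodicarboxylates, was higher in WT butyrate than in WT untreated. The log2 ratio was -3.64, -2.62 and -2.76 in WT untreated and -1.02, -0.52 and 0.34 in WT butyrate, without overlap, a change of 2.61 ± 0.55 (SE; limma adjusted p = 0.0483). SLC25A21-AS1 went from 2.03 ± 0.744 to 4.43 ± 1.07 CPM and SLC25A21 from 17.0 ± 6.04 to 5.89 ± 1.53 CPM (SD, n = 3), and neither was called alone. In KO butyrate the ratios of SNAI3-AS1 to SNAI3 and of NUTM2A-AS1 to NUTM2A fell, by 2.32 ± 0.44 and 1.69 ± 0.33 (SE, log2; limma adjusted p = 0.022 for each). The SNAI3-AS1 ratio was 2.67, 1.88 and 1.23 in KO untreated and 0.21, -0.50 and -0.88 in KO butyrate, where SNAI3 rose and SNAI3-AS1 did not pass the test. Each of these 3 calls held in 1 or 2 of the 6 fits that left out 1 library, and the highest limma adjusted p was 0.228 for SLC25A21-AS1 (without WT butyrate replicate 3) and 0.151 for the other two (without KO butyrate replicate 2).

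In the B3GALT1 pair both genes had 0 counts in all 6 KO libraries, so that its log2 ratio there is 0 by the prior count alone. It is 1 of the 12 and 1 of the 6 called pairs and shows no ratio in KO. The ratio calls of ZFPM2-AS1, ATXN1-AS1, AFAP1-AS1 and CCDC144NL-AS1 rest on a gene at or near 0 counts in some libraries, so their size is set in part by the prior count. The changes in untreated cells were -5.97 ± 0.78 (SE, log2) for ATXN1-AS1, -4.36 ± 0.70 for AFAP1-AS1 and -6.11 ± 0.63 for ZFPM2-AS1, all given with no test. TFAP2A, a transcription factor of neural crest and skin, was higher in untreated KO cells by 3.89 ± 0.62 (SE, log2; edgeR adjusted p = 0.000714), and TFAP2A-AS2 did not pass the test (edgeR adjusted p = 0.579). TFAP2A was at 0.596, 1.48 and 1.92 CPM in WT untreated and 17.8, 20.6 and 21.8 CPM in KO untreated, against 5.63, 7.15 and 4.51 and 9.20, 5.99 and 6.85 CPM for TFAP2A-AS2. The sense groups did not overlap and the antisense groups did. The log2 ratio was lower in KO by 3.62 ± 0.73 (SE; limma adjusted p = 0.00832) untreated and 3.30 ± 0.73 (limma adjusted p = 0.0201, or 0.122 without KO butyrate replicate 2) treated.

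EPB41L4A, a gene of the band 4.1 family of membrane-skeleton proteins, was also higher in untreated KO cells, by 1.94 ± 0.24 (SE, log2; edgeR adjusted p = 0.000119), while EPB41L4A-AS1 did not pass the test (edgeR adjusted p = 0.932). EPB41L4A was at 9.64, 8.21 and 10.2 CPM in WT untreated and 25.3, 43.5 and 38.5 CPM in KO untreated, without overlap, while EPB41L4A-AS1 was at 36.0, 67.6 and 49.2 CPM and at 53.7, 37.3 and 55.7 CPM, which overlapped. The log2 ratio was lower in KO by 1.93 ± 0.43 (SE; limma adjusted p = 0.0136) untreated and 2.18 ± 0.43 (limma adjusted p = 0.00979) treated. In the PTOV1 pair the antisense transcript was the one called, with PTOV1-AS1 at 18.4 ± 2.56 CPM in WT untreated and 7.49 ± 0.493 CPM in KO untreated and PTOV1 at 55.1 ± 11.1 and 60.6 ± 8.07 CPM (SD, n = 3). Its ratio was lower in untreated KO cells by 1.42 ± 0.34 (SE, log2; limma adjusted p = 0.0199).

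**Figure D5:**
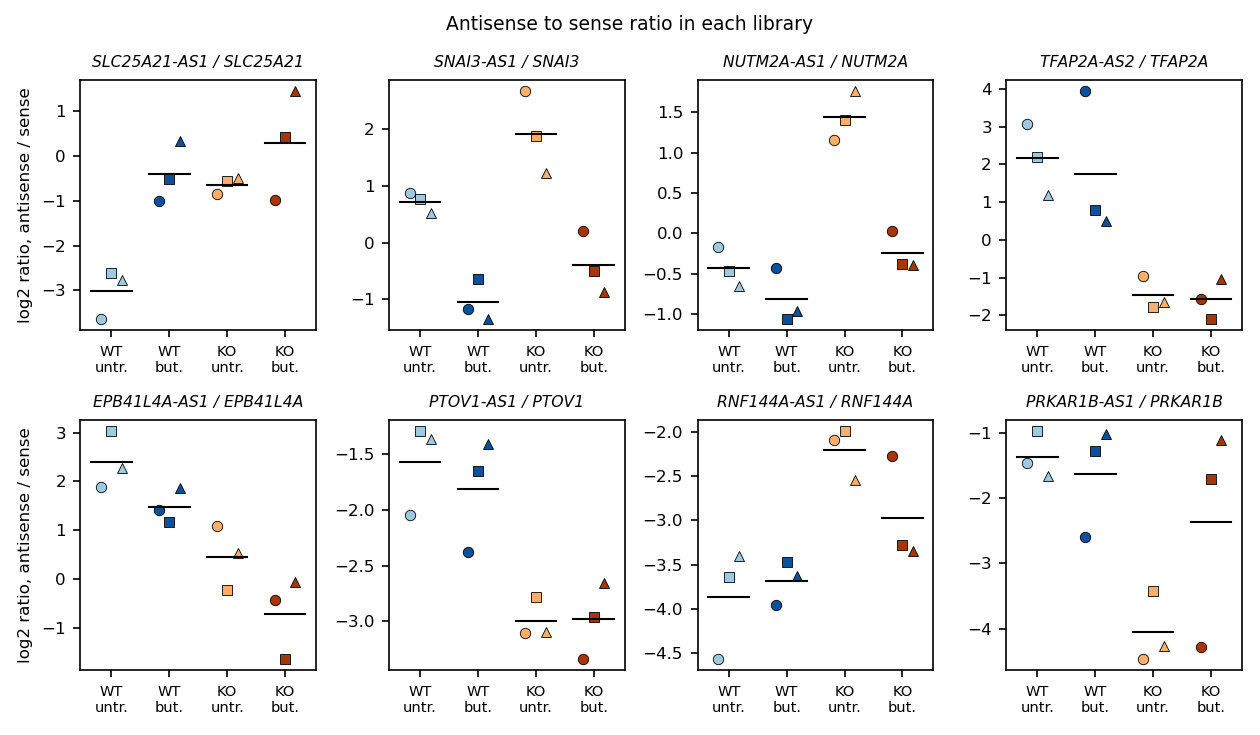
Log2 ratio of antisense to sense CPM, with a prior count of 2, for 8 pairs in the 4 groups, with 1 point per library (circle, square and triangle for replicates 1, 2 and 3) and a bar at the mean of each group of 3. The TFAP2A-AS2 ratio is above 0 in all WT libraries and below 0 in all KO libraries, and the SNAI3-AS1 ratio is lower in each treated library than in any untreated library of its genotype.

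The difference between genotypes in the response to butyrate passed the threshold for 0 of the 159 members and for 0.0% of all genes by edgeR. At an unadjusted p under 0.05 there were 8 members (4.16% of all genes). DESeq2 called 2 members, and its share of all genes is not given here. Other groups of genes were set beside the members as a description. Of 112 genes with LINC symbols and a mean level of at least 3 CPM, 42 were called between genotypes in untreated cells (37.5%) and 3 for butyrate in WT (2.68%), against 23.9% and 2.52% of the members. The 2.52% includes DLGAP1-AS2, which was chosen for its fall. Of the 147 tested sense genes, 43 (29.3%) and 5 (3.4%) were called. Of 348 tested antisense symbols under 3 CPM, 32 (9.2%) and 1 (0.287%) were called, with fewer counts behind each. No difference between these lists was tested.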

How the data were processed

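RNA-seq of K562 cells gave 12 libraries in 4 groups of 3. The authors deposited whole-number counts per gene, not normalized, in 1 table, with 0 columns unused here. Per the submitters' processing notes, FastQC 0.12.1, STAR 2.7.11b and hg38 were used. The counting tool, its annotation and its use of strand are not given in the sources used here.

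Genes passing edgeR's filterByExpr (minimum count 10) were scaled by TMM and tested over all 12 libraries with edgeR's quasi-likelihood test (edgeR 4.0.16, R 4.3.3), with Benjamini-Hochberg adjustment over all 15805 genes and a threshold of 0.05. Log2 ratios of antisense to sense CPM, with a prior count of 2, were tested with limma 3.58.1 over 470 pairs. DESeq2 1.42.0 was an alternative. The fits were tested on simulated data. Gene positions came from GENCODE 29 and start windows from RefSeq. The level that chose the members used column sums, and the CPM of single libraries and groups used TMM-scaled sizes.

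The members and lists were chosen with earlier results of these data known. Any member or its sense gene could be named. Named in full were the 5 members of highest mean level, DLGAP1-AS2 with DLGAP1-AS1 and DLGAP1, the 10 called members of largest change in each comparison and the 5 called pairs of largest ratio change. Other named genes are examples picked after their values were seen. Some members that this rule would name are not reported here.

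Same-numbered libraries deviated together: the correlations over genes of their deviations from the group means were 0.195 to 0.409 in WT, 0.147 to 0.468 in KO, 0.210 to 0.361 untreated and 0.315 to 0.595 treated. The highest values between different numbers were 0.186, 0.123, 0.0692 and 0.343, so the treated genotype comparison was not fully separated. That the numbers pair the libraries is a hint from the data and not from the labels. The reported tests therefore did not use the replicate number, and a fit with it as a block was an alternative.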

Additional observations from a re-analysis of the deposited data

How the results depend on the processing

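No result named here reversed under any alternative. The counts of members called are given in the order butyrate in WT, butyrate in KO, genotype untreated and genotype treated, where the reported counts were 4, 2, 38 and 26. DLGAP1-AS2, which was chosen for its fall under butyrate, was not left out of these counts. DESeq2 called 10, 13 and 41 for all but genotype untreated, and 2 for the interaction. For DESeq2 and every setting without a share stated above, the share of all genes called is not given. Such counts do not show how the members stand beside other genes. Pairing by the replicate block gave 9, 13 and 46 in those 3, and leaving out the libraries numbered 1 gave 9, 14 and 40. Members with at least 10 counts in every library gave 1, 24 and 16 for all but butyrate in WT, and a mean of at least 10 CPM gave 2, 1, 17 and 12. Leaving out 1 library gave 1 to 7, 0 to 8, 26 to 44 and 18 to 37, and 0 to 0 for the interaction.

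For ratios the reported counts were 1, 2, 12 and 6. A prior count of 0.5 gave 0 in the first, and no filter gave 0 in the first and 10 for genotype treated. At least 10 counts in every library gave 0 in the first, 6 for genotype untreated and 1 for genotype treated. The replicate block gave 3, 4, 22 and 11, and leaving out the libraries numbered 1 gave 2, 7 and 14 for all but genotype untreated. A mean of at least 1 CPM gave 2 in the first, and at least 10 CPM gave 0, 1, 6 and 2. Leaving out 1 library gave 0 to 2, 0 to 5, 7 to 17 and 3 to 9, and 0 to 0 for the interaction. The cause was not tested, apart from the fewer members or libraries that some of these settings use. Antisense transcripts near 3 counts in a group could not be compared by fold at this depth.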

Other observations

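MIF, a cytokine gene whose exons MIF-AS1 overlaps, is listed at 0 in all 12 libraries, and MIF-AS1 had 78 to 290 counts. Every MIF-AS1 count was an even number. Of 13578 genes with counts in every library, 40 had even counts throughout, and MIF-AS1 was 1 of them and the only antisense member. The cause was not tested, and the level of MIF-AS1 is uncertain.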
